A study of Homo sapiens with 8 samples.

Results

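Amino acid transporters of the SLC1, SLC3, SLC6, SLC7, SLC36, SLC38 and SLC43 families were examined in CFPAC-1, an established cell line from human pancreatic ductal adenocarcinoma. Members were the genes of the count table whose symbol is one of these family names followed by its number, which gave 59 of 58870 genes. RNA was sequenced from 4 samples with an empty vector (EV) and 4 samples with an ADRA2A transgene, which encodes the alpha-2A adrenergic receptor. All 8 samples were grown for 72 hours in IMDM with 10% FBS and 1% penicillin-streptomycin, and none received a drug. The vector, the promoter of the transgene and whether each line is 1 clone are not given in the sources used here. The labels do not say whether samples of a group were separate cultures. The p-values therefore set the group difference against the spread between these samples, which may be technical.

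Cells take up amino acids through carriers that differ in substrate and driving ion. Sodium-coupled carriers of the SLC1, SLC6 and SLC38 families concentrate glutamine, alanine, glutamate and glycine inside the cell. Exchangers of the SLC7 family then trade these for essential amino acids, and several SLC7 light chains reach the membrane only when joined to a heavy chain, SLC3A2 (CD98) or SLC3A1. Pancreatic cancer cells are known for a high demand for glutamine and cystine, and several of these carriers are targets of ATF4, the transcription factor of the amino acid starvation response.

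The libraries held between 14427035 and 17528915 counts. The gene ADRA2A had 0 counts in each EV library and between 112 and 172 in the ADRA2A libraries. The 10 ductal epithelial markers, led by KRT8, KRT19 and KRT18, summed to between 12214 and 12791 TMM-scaled counts-per-million (CPM) in EV and between 12153 and 13209 CPM in ADRA2A libraries, although CFTR averaged 0.708 and 0.431 CPM and was not tested. Acinar markers summed to at most 0.379 CPM, fibroblast markers to at most 3.94 CPM, and all 5 endocrine markers were at 0. Among leukocyte markers CD3E was at 0, PTPRC had at most 4 counts in a library, and CD68, a lysosomal protein, gave most of the sum (91.6 CPM in EV and 114.3 CPM in ADRA2A cells on average). The leukocyte sum was between 90.2 and 96.8 CPM in EV and between 110.1 and 121.3 CPM in ADRA2A libraries, and its part in the results was not tested. Endothelial markers summed to between 2.05 and 2.71 CPM in EV and between 2.64 and 3.35 CPM in ADRA2A libraries, and neuronal markers to between 7.90 and 10.9 and between 6.41 and 7.61 CPM, with RBFOX3 and DBH at 0. Fewer cells that express a gene and less RNA per cell cannot be told apart in such bulk samples.

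Among the transporters 4 changed by at least 0.5 on the log2 scale. SLC1A1, a glutamate and aspartate carrier, rose 1.99-fold in the ADRA2A cells, and SLC43A2, a carrier of branched-chain amino acids, rose 1.45-fold. SLC43A1, its close relative, fell to 0.513 of its EV level, and SLC38A4, a sodium-coupled neutral amino acid carrier, to 0.171 of it. The most abundant carriers changed by less: SLC38A2, SLC38A1, SLC1A5, SLC7A1 and SLC7A11 fell, SLC6A14 rose, and SLC7A5 and SLC3A2 did not pass the test. The call of SLC7A11 was lost when any one of 4 libraries was left out.

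Of the 59 members, 29 passed the filter on low counts and were tested, and 30 did not. With edgeR's quasi-likelihood test and Benjamini-Hochberg adjustment over all genes tested, 16 of the 29 (55.2%) had an adjusted p-value under 0.05, where 42.7% of all tested genes did. The 11 members that were lower made up 37.9% of those tested (21.1% of all genes), and the 5 that were higher made up 17.2% (21.6% of all genes). The median log2 fold change was -0.13 over the tested members and 0.00 over all genes tested. Calls that also moved by 0.5 or more (log2) numbered 4 (13.8%), against 12% of all genes: 2 members higher, where 6.8% of all genes were, and 2 lower, where 5.19% were. For 13 members (44.8%) every library of one group lay above every library of the other, as it did for 39.2% of all genes. These were 9 lower members (31%, against 19.5% of all genes) and 4 higher ones (13.8%, against 19.7%). Below, a value with ± is a mean with its SD over 4 libraries, unless SE is written.

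**Figure D1:**
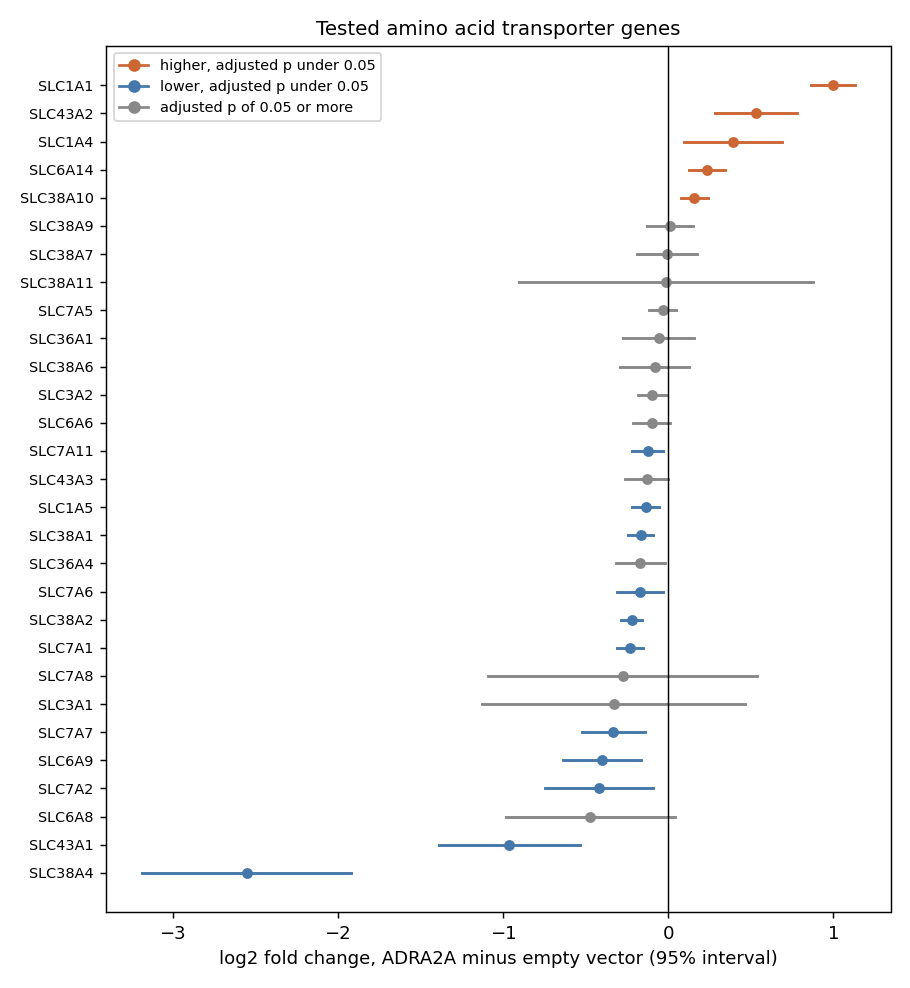
Log2 fold change of each of the 29 tested members (ADRA2A minus EV, x axis) with its 95% interval from edgeR's quasi-likelihood fit, coloured by call. SLC38A4 lies far to the left at -2.55 and SLC1A1 at the right end at 1.00, while most members sit slightly below 0 and the widest intervals belong to rarely counted genes such as SLC38A11.

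The start sites of the members were searched for the sequence that ATF4 and its partners bind, because carriers of this group are known ATF4 targets. RefSeq windows from 250 bases before to 50 after a start (GRCh38.p14) were given for 44 members, in 66 windows. These included 24 of the 29 tested members. The tested members SLC3A1, SLC6A6, SLC7A2, SLC7A11 and SLC43A3 had no window and were not searched. The letters TGATGNAA, on either strand, were in 6 of the 66 windows (9.09%) and in 3.62% of all 35116 windows. The cAMP response element TGACGTCA, a palindrome, was in 0 of the 66 windows and in 1.85% of all. The 2 motifs share no match in the members. The tested members with a match are shown on the gene's own strand, with the match in capitals and 11 bases on each side (fewer for SLC3A2, where the window ended). In SLC1A4 and SLC3A2 the match is on the opposite strand, so the capitals show its reverse complement.
SLC1A4: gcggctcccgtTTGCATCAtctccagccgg
SLC1A5: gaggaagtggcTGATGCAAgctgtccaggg
SLC38A1: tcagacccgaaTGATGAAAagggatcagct
SLC3A2: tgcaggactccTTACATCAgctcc
SLC7A1: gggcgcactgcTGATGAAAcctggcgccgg

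These stretches lie at chr2:64989381-64989410 (plus strand), chr19:46784893-46784922 (minus), chr12:46266502-46266531 (minus), chr11:62881725-62881748 (plus) and chr13:29595663-29595692 (minus). The first base of the match was at -7, -97, -4, 38 and 8 from the annotated start of its own window, in that order. For SLC1A5 it was in 1 of 3 windows of the gene, for SLC3A2 in 1 of 3, and for SLC1A4 and SLC38A1 in 1 of 2. In each of these genes a window further upstream had no match, so the start concerned is an internal one. Which start the cells use was not tested. Among these 5 genes SLC1A5, SLC38A1 and SLC7A1 fell, SLC1A4 rose and SLC3A2 did not pass the test. A match describes the letters and was not tested as a binding site.

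Levels of different genes were compared as CPM per kilobase of exon. The length was that of all annotated exons of a gene merged, such as 6.392 kb for SLC3A2 and 4.764 kb for SLC7A5. The transcripts made can be shorter than this, so order and ratios between genes are approximate. SLC38A2 (79.9 ± 1.82 in EV) and SLC1A5 (74.8 ± 3.38) led the tested members in the EV cells, and SLC7A5 followed at 57.7 ± 2.99 CPM per kilobase. SLC38A1 had 37.7, SLC3A2 26.9, SLC7A11 19.2, SLC7A1 16.6 and SLC6A14 11.8 CPM per kilobase. In the ADRA2A cells SLC38A2 (68.6 ± 0.756) and SLC1A5 (68.0 ± 2.24) differed by less than their spread. At the low end, SLC38A11, SLC7A8 and SLC3A1 had 0.0971, 0.126 and 0.130 CPM per kilobase in EV, with overlapping libraries. Summed over all 59 members, the EV libraries held between 2317 and 2393 CPM and the ADRA2A libraries between 2158 and 2198 CPM. SLC38A2, SLC38A1, SLC7A5 and SLC1A5 gave between 58.4% and 60.9% of the members' counts in a library.

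**Figure D2:**
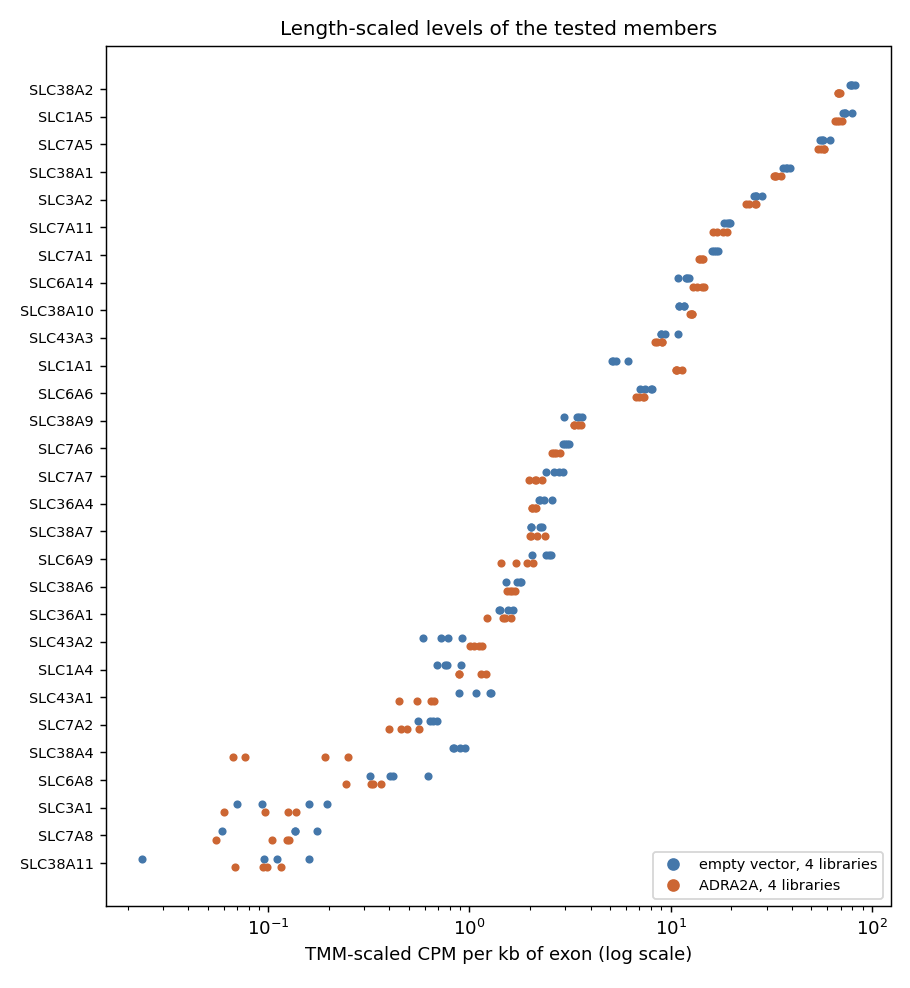
Level of each tested member in every library as TMM-scaled CPM per kilobase of exon (log axis), EV and ADRA2A drawn in separate colours. Members span from about 0.1 (SLC38A11) to 79.9 (SLC38A2) CPM per kilobase, and SLC38A4 and SLC1A1 are the clearest separations of the colours.

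The heteromeric carriers were examined first. SLC3A2, the heavy chain on which SLC7A5, SLC7A6, SLC7A7, SLC7A8 and SLC7A11 depend (ENSG00000168003.16; chromosome 11, 62856004 to 62888880, plus strand), had 170, 183, 171 and 166 CPM in the EV libraries and 151, 167, 169 and 157 CPM in the ADRA2A libraries. EV and ADRA2A values overlapped. The difference was -0.10 (log2; 95% interval -0.18 to -0.01; edgeR adjusted p = 0.0792), and over the alternatives the adjusted p ranged from 0.0437 to 0.273. SLC7A5 (LAT1; ENSG00000103257.9; chromosome 16, 87830023 to 87869507, minus strand) exchanges large neutral amino acids such as leucine for glutamine. It had 263, 296, 272 and 269 CPM in EV and 258, 275, 275 and 267 CPM in ADRA2A libraries, and the groups overlapped. The log2 fold change of SLC7A5 was -0.03 with a 95% interval from -0.11 to 0.05 (edgeR adjusted p = 0.526). All 8 of its deposited values had decimals, which RSEM gives where reads match more than 1 gene, so its level is uncertain.

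SLC7A11 (xCT; ENSG00000151012.13; chromosome 4, 138164097 to 138242349, minus strand) imports cystine in exchange for glutamate and so feeds glutathione synthesis. Its EV libraries had 183, 188, 178 and 190 CPM and its ADRA2A libraries 175, 163, 157 and 183 CPM. Most ADRA2A libraries were below the EV libraries, but ADRA2A replicate 4 reached into their range. SLC7A11 differed by -0.12 ± 0.04 (log2, SE; edgeR adjusted p = 0.0301). The adjusted p was 0.0680 without EV replicate 2, 0.0906 without EV replicate 4, 0.0982 without ADRA2A replicate 2 and 0.124 without ADRA2A replicate 3.

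The other light chains were less abundant. SLC7A7, which exports cationic amino acids in exchange for neutral ones, fell from 14.45 ± 1.25 to 11.5 ± 0.699 CPM, a difference of -0.33 ± 0.09 (log2, SE; edgeR adjusted p = 0.00609). SLC7A6, a relative of the same function, went from 23.0 ± 0.691 to 20.4 ± 0.805 CPM (edgeR adjusted p = 0.0433). It overlaps SLC7A6OS on the opposite strand. Its call was lost with DESeq2 (0.119), without the filter on low counts (0.103), with a replicate block (0.0581) and without any one of EV replicates 1, 3 and 4 (0.106, 0.0776 and 0.0639) and ADRA2A replicates 1, 2 and 4 (0.105, 0.0711 and 0.0856). SLC7A8 (LAT2) had between 5 and 16 counts per library, and no difference was detectable at this depth.

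Per kilobase of merged exon, the ratio of SLC7A5 to its heavy chain SLC3A2 was 2.08, 2.17, 2.14 and 2.17 in the EV libraries. It was 2.29, 2.21, 2.19 and 2.27 in the ADRA2A libraries. The 4 ADRA2A ratios were all above the EV ratios, with means of 2.14 ± 0.0423 and 2.24 ± 0.0508, but the nearest were 2.19 and 2.17. The ratio of SLC7A11 to SLC3A2 was 0.712 ± 0.0325 in EV and 0.701 ± 0.0811 in ADRA2A libraries and overlapped. The ratios to SLC3A2 of SLC7A6 (means 0.113 and 0.107), SLC7A7 (0.0999 and 0.0850) and SLC7A8 overlapped too. So did that of 6 light chains summed, with 3.07 ± 0.0555 in EV and 3.14 ± 0.141 in ADRA2A libraries. The 6 were SLC7A5, SLC7A6, SLC7A7, SLC7A8, SLC7A11 and SLC7A10, of which SLC7A10 had 0 counts in all libraries. SLC7A5, with a mean ratio of 2.14 in EV, gave most of the sum. All of these ratios are of RNA levels and were described without a test. Their size depends on the exon lengths used, so they do not settle which chain had more RNA.

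The second heavy chain, SLC3A1 (rBAT; ENSG00000138079.13; chromosome 2, 44275458 to 44321494, plus strand), pairs with SLC7A9 to reabsorb cystine and cationic amino acids in kidney and gut. SLC3A1 had 1.29, 0.611, 1.05 and 0.458 CPM in EV and 0.900, 0.396, 0.630 and 0.822 CPM in ADRA2A libraries, with overlap. Its interval ran from -1.13 to 0.47 (log2; estimate -0.33, edgeR adjusted p = 0.518). The gene overlaps PREPL on the opposite strand, which was much more abundant (95.6 CPM in EV). On its own strand it overlaps the protein-coding gene AC013717.1, with means of 1.95 CPM in EV and 1.44 CPM in ADRA2A libraries. All 8 deposited values of SLC3A1 had decimals, and their source was not tested. Its partner SLC7A9 (ENSG00000021488.13) had 6 counts in EV replicate 1, 1 count in ADRA2A replicate 4 and 0 in the other libraries, and was not tested.

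The cationic amino acid carriers of the SLC7 family, which need no heavy chain, were both lower. SLC7A1 (CAT1; ENSG00000139514.13; chromosome 13, 29509414 to 29595688, minus strand), the main carrier of arginine and lysine in most cells, had 124, 132, 130 and 126 CPM in EV and 111, 108, 107 and 110 CPM in ADRA2A libraries. All ADRA2A libraries lay below all EV libraries. The fold change of SLC7A1 was -0.23 ± 0.04 (log2, SE; edgeR adjusted p = 6.06e-05). SLC7A2 (CAT2) went from 5.03 ± 0.440 to 3.77 ± 0.531 CPM (edgeR adjusted p = 0.0372). Its call was lost with DESeq2 (0.0892), with no filter (0.0553) and without any one of EV replicates 1, 2 and 4 (0.0657, 0.0841 and 0.0789) and ADRA2A replicates 2, 3 and 4 (0.0708, 0.116 and 0.0549). In all, 5 of the 7 tested SLC7 genes were lower and 0 higher, with fold changes of the 7 between -0.42 and -0.03 (log2), where 21.1% of all genes tested were lower and 21.6% higher. The calls of SLC7A2, SLC7A6 and SLC7A11 among these 5 were lost under the settings named above. SLC7A3, SLC7A10 and SLC7A13 had 0 counts in all libraries, and SLC7A4 and SLC7A14 had at most 4 in any library.

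In the SLC1 family, SLC1A1 (EAAT3; ENSG00000106688.12; chromosome 9, 4490468 to 4587469, plus strand) takes up glutamate, aspartate and cysteine with sodium. It had 20.3, 20.6, 21.3 and 24.35 CPM in the EV libraries and 45.3, 42.8, 42.3 and 42.25 CPM in the ADRA2A libraries. Each ADRA2A library held well above any EV library, and the ADRA2A values were close to each other. On average SLC1A1 rose from 21.6 ± 1.86 to 43.1 ± 1.44 CPM, or by 1.00 ± 0.06 (log2, SE; edgeR adjusted p = 1.81e-10). SPATA6L, which overlaps it on the other strand, went from 1.69 to 2.81 CPM (log2 fold change 0.73, edgeR adjusted p = 0.0203), and the use of strand in counting is not given in the sources used here.

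SLC1A5 (ASCT2; ENSG00000105281.12; chromosome 19, 46774883 to 46788594, minus strand) exchanges glutamine and other neutral amino acids. It had 247, 265, 246 and 239 CPM in EV and 224, 228, 236 and 218 CPM in ADRA2A libraries, with no overlap. The change was -0.14 ± 0.04 (log2, SE; edgeR adjusted p = 0.00694). SLC1A4 (ASCT1), which carries alanine, serine and cysteine, rose from 5.42 ± 0.651 to 7.16 ± 1.17 CPM (edgeR adjusted p = 0.0307), and its libraries overlapped. Its call was lost with DESeq2 (0.0700) and without any one of EV replicates 2, 3 and 4 (0.0562, 0.0645 and 0.0890) and ADRA2A replicates 1 and 4 (0.0896 and 0.115). The glutamate carriers of glia and neurons, SLC1A2, SLC1A3, SLC1A6 and SLC1A7, had at most 8 counts in any library.

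**Figure D3:**
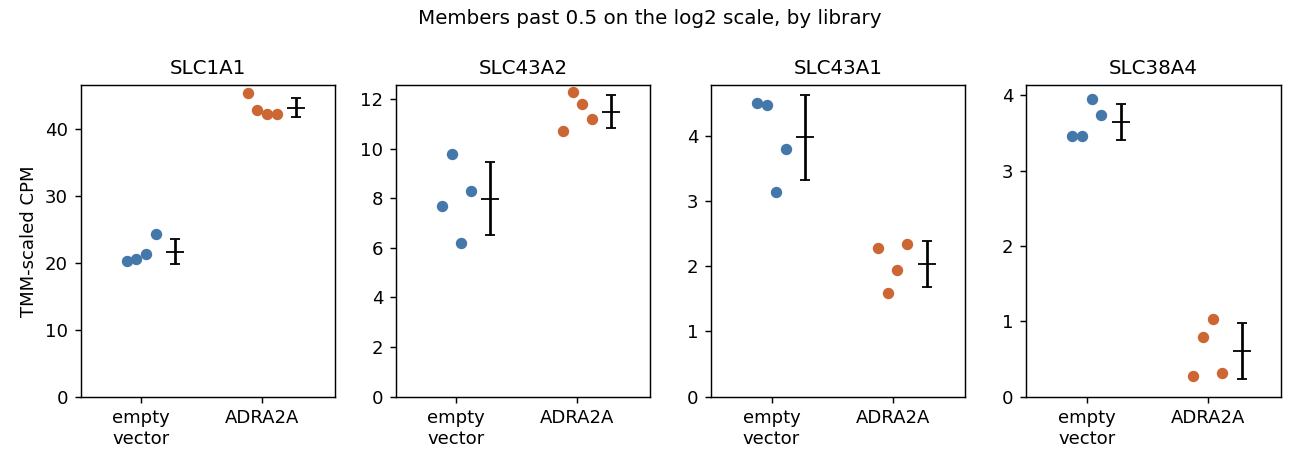
TMM-scaled CPM (y axis from 0) of SLC1A1, SLC43A2, SLC43A1 and SLC38A4 in each of the 4 EV and 4 ADRA2A libraries, with mean and SD beside the points. In none of the 4 panels do the groups overlap, and the SLC38A4 points of the ADRA2A cells lie between 0.277 and 1.03 CPM.

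The SLC38 family holds the sodium-coupled neutral amino acid carriers. SLC38A2 (SNAT2; ENSG00000134294.14; chromosome 12, 46358188 to 46372773, minus strand), a carrier of alanine and glutamine that cells raise on amino acid shortage, had 515, 520, 509 and 536 CPM in EV and 442, 453, 444 and 445 CPM in ADRA2A libraries. The groups were clearly separated. SLC38A2 fell by 0.22 on the log2 scale with a standard error of 0.03 (edgeR adjusted p = 7.12e-06). SLC38A1 (SNAT1; ENSG00000111371.15; chromosome 12, 46183063 to 46270017, minus strand), a glutamine carrier, had 374, 364, 381 and 393 CPM in EV and 335.5, 330, 326 and 356 CPM in ADRA2A libraries. These did not overlap either, and SLC38A1 differed by -0.17 ± 0.04 (log2, SE; edgeR adjusted p = 0.000955).

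SLC38A4 (SNAT4; ENSG00000139209.16; chromosome 12, 46764761 to 46832408, minus strand), known mainly from liver and placenta, was rare in these cells. It had 59, 51, 68 and 57 counts in the EV libraries and 4, 12, 18 and 5 counts in the ADRA2A libraries, or 3.46, 3.46, 3.95 and 3.73 CPM against 0.277, 0.792, 1.03 and 0.316 CPM. All EV libraries were far above all ADRA2A libraries. The fitted change was -2.55 ± 0.30 (log2, SE; edgeR adjusted p = 1.15e-06), and it lay between -2.96 and -2.33 when each library was left out in turn. An antisense gene, SLC38A4-AS1, went from 1.03 to 0.575 CPM (log2 fold change -0.82, edgeR adjusted p = 0.0624). SLC38A1, SLC38A2 and SLC38A4 lie close together on chromosome 12, with gaps of 88.2 kb between SLC38A1 and SLC38A2 and 392.0 kb between SLC38A2 and SLC38A4, and all 3 were lower, by the amounts given.

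Of the other SLC38 genes, SLC38A10 rose from 89.7 ± 2.64 to 100.1 ± 1.01 CPM (by 0.16 ± 0.04, log2, SE; edgeR adjusted p = 0.00305) without overlap. SLC38A9, the lysosomal arginine sensor of the mTORC1 pathway, had 29.9 ± 2.61 and 30.1 ± 1.15 CPM, with a 95% interval of the log2 fold change from -0.13 to 0.15. SLC38A7, a lysosomal glutamine carrier, and SLC38A6 had log2 fold changes of -0.01 and -0.08 and did not pass the test, and SLC38A6 overlaps TRMT5 on the opposite strand. SLC38A11 had between 3 and 18 counts per library, too few for a difference to be detectable. SLC38A3, SLC38A5 and SLC38A8 had at most 9 counts in any library.

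The SLC43 family carries branched-chain amino acids, phenylalanine and methionine by facilitated diffusion without a heavy chain. SLC43A1 (LAT3; ENSG00000149150.9; chromosome 11, 57484534 to 57515780, minus strand) had 4.51, 4.48, 3.14 and 3.80 CPM in EV and 2.28, 1.58, 1.95 and 2.34 CPM in ADRA2A libraries. The 2 ranges were apart, and SLC43A1 fell by 0.96 on the log2 scale with a standard error of 0.20 (edgeR adjusted p = 0.000765). SLC43A2 (LAT4; ENSG00000167703.14; chromosome 17, 1569268 to 1628886, minus strand) had 7.67, 9.77, 6.22 and 8.31 CPM in EV and 10.7, 12.3, 11.8 and 11.2 CPM in ADRA2A libraries. Its ADRA2A libraries were all higher, by 0.53 ± 0.12 (log2, SE; edgeR adjusted p = 0.00118). SLC43A3, which carries purine nucleobases and not amino acids, had 43.1 ± 4.00 and 39.5 ± 1.66 CPM (edgeR adjusted p = 0.104). It is 57.0 kb from SLC43A1.

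The SLC6 family couples transport to sodium and chloride. SLC6A14 (ENSG00000268104.3; chromosome X, 116436606 to 116461458, plus strand), which takes up nearly all neutral and cationic amino acids and is known to be raised in pancreatic cancer, had 54.6, 56.1, 49.55 and 54.1 CPM in EV and 65.05, 58.8, 66.4 and 61.7 CPM in ADRA2A libraries. The lowest ADRA2A library was above the highest EV library. SLC6A14 rose by 0.24 ± 0.05 (log2, SE; edgeR adjusted p = 0.0012). SLC6A9, the glycine transporter GlyT1, fell from 12.4 ± 1.19 to 9.39 ± 1.46 CPM (difference -0.40 ± 0.11, log2, SE; edgeR adjusted p = 0.00731), with overlap between EV replicate 1 and ADRA2A replicate 2. It overlaps CCDC24 on the opposite strand.

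The taurine carrier SLC6A6 had 62.9 ± 4.09 and 58.6 ± 2.49 CPM (edgeR adjusted p = 0.134) and the creatine carrier SLC6A8 2.51 ± 0.725 and 1.80 ± 0.290 CPM (edgeR adjusted p = 0.130). The noradrenaline transporter SLC6A2 (ENSG00000103546.18), which clears the ligand of the transgenic receptor in nerve cells, had 0 counts in all 8 libraries. A count of 0 allows up to 3 counts, or between 0.172 and 0.208 CPM per library. The dopamine carrier SLC6A3 and the serotonin carrier SLC6A4 had at most 3 counts in any library. Of the 19 SLC6 genes 15 were not tested, 8 of them with 0 counts throughout. The proline carrier SLC6A20 was the most counted of these 15, with at most 15 counts in a library.

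In the proton-coupled SLC36 family, SLC36A1 of the lysosome and brush border had 10.5 ± 0.797 and 10.1 ± 1.13 CPM (edgeR adjusted p = 0.687). SLC36A4 went from 22.8 ± 1.61 to 20.3 ± 0.501 CPM (edgeR adjusted p = 0.0627). Its libraries did not overlap, and its adjusted p was 0.0416 with upper quartile factors and 0.0449 without EV replicate 3. SLC36A2 and SLC36A3 had 0 counts in all libraries.

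**Figure D4:**
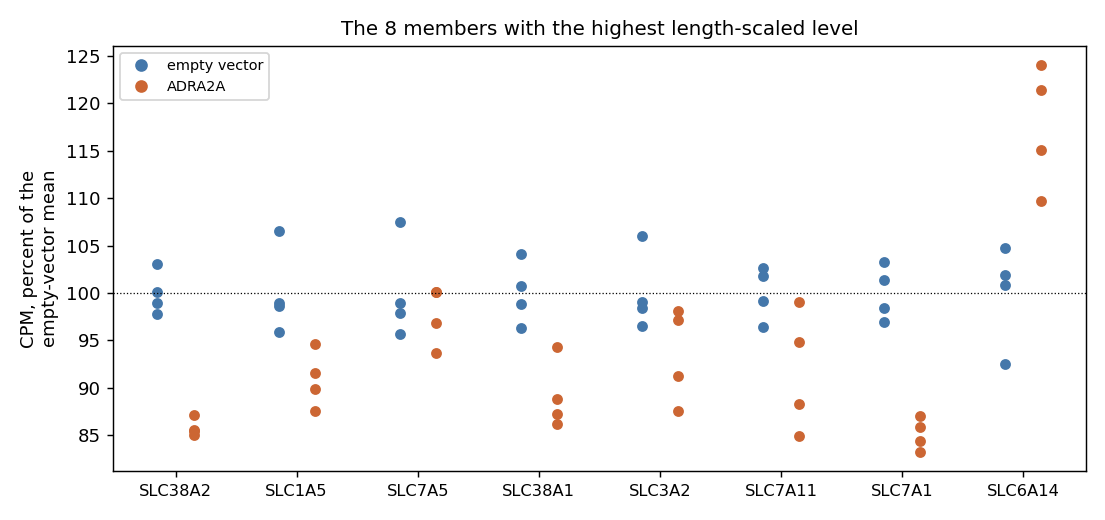
The 8 members with the highest length-scaled level, in each library as a percent of the gene's own EV mean (y axis, not from 0). SLC38A2 and SLC7A1 of the ADRA2A cells lie between 83.3% and 87.2%, SLC6A14 lies between 109.7% and 124%, and the SLC7A5 libraries overlap.

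By level, 5 of the 8 highest members fell, 1 rose and 2 did not pass the test. Of the 21 others, 6 fell, 4 rose and 11 did not pass. Among all genes tested, at any level, 21.1% were lower and 21.6% higher, and the difference between the 8 and the 21 was not tested. The coefficient of variation between libraries of a group was between 1.10% and 6.88% for the 8 highest, and SLC1A5 at 90.9% and SLC38A1 at 89.1% of their EV means passed the test. The 9 lower calls under 0.5 in size were changes of between -25.2% and -8.23%.

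Because neighbouring genes can move together between 2 cell populations, each tested member was set beside its 10 nearest tested genes on either side. The 20 neighbours of SLC1A1 had a median log2 fold change of -0.05, those of SLC38A4 0.05, those of SLC43A1 -0.02 and those of SLC43A2 -0.11. Among the tested members the stretch around SLC6A9 had the highest median, 0.21 with 10 of 20 genes higher, while SLC6A9 itself was lower. SLC6A14 was higher in a stretch with 8 of 20 genes lower (median -0.13). In 9 of the 16 called members (56.2%) the neighbours' median had the opposite sign. The same share over all called genes was not computed, so this count is not a result about the members.

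**Figure D5:**
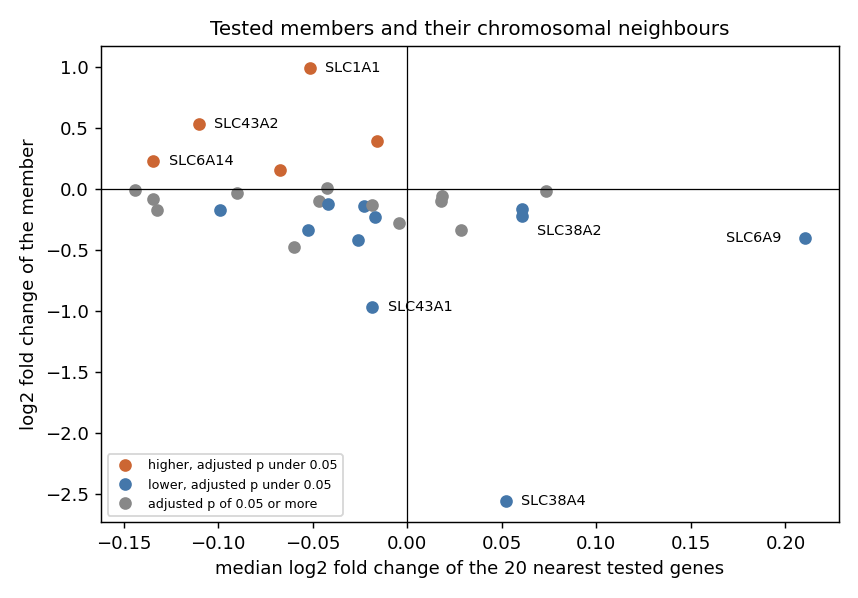
Log2 fold change of each tested member (y axis) against the median log2 fold change of its 20 nearest tested genes (x axis), coloured by call. The neighbours' medians stay between -0.144 and 0.210, while the members reach from -2.55 to 1.00.

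Genes that work beside the carriers were described from lists. The lists share some genes, among them CHAC1, ASNS and SESN2 of the starvation list. The shares to read them against are 21.6% higher and 21.1% lower among all genes tested. In the amino acid starvation response, in which GCN2 raises ATF4 and its targets, 15 of 29 tested genes were lower and 2 higher, with a median log2 fold change of -0.15. ATF4 itself had 316, 363, 328 and 331 CPM in EV and 258, 241, 254 and 242 CPM in ADRA2A libraries, with no overlap (difference -0.43 ± 0.04, log2, SE; edgeR adjusted p = 6.70e-08). STC2, a secreted glycoprotein, fell from 263.5 ± 18.7 to 162.4 ± 5.96 CPM (edgeR adjusted p = 2.25e-10). TRIB3, a pseudokinase that restrains the response, fell from 153.0 ± 13.3 to 92.0 ± 4.16 CPM (edgeR adjusted p = 1.13e-09). SESN2 and WARS1 were the 2 higher genes; they and ATF4 were named after their values were seen.

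The serine, glycine and tryptophan enzymes had 6 of 12 tested genes lower and 0 higher (median log2 fold change -0.18). Of these, GCSH of the glycine cleavage system fell by 0.46 and PSAT1 of serine synthesis by 0.42 on the log2 scale (edgeR adjusted p = 2.09e-07 and 2.80e-06). PHGDH, PSAT1, PSPH, SHMT2 and MTHFD2 are also on the starvation list, so the counts of these lists are not separate results. Among cysteine and glutathione enzymes, 4 of 14 tested genes were lower and 2 higher (median -0.14). They included GCLC, the catalytic subunit of the first enzyme of glutathione synthesis, which went from 96.7 ± 3.48 to 71.1 ± 3.06 CPM (edgeR adjusted p = 1.29e-07), and GPX4, a peroxidase of membrane lipids, with a log2 fold change of -0.25.

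Glutamine and glutamate enzymes went both ways, with 3 of 14 tested genes higher, 5 lower and a median of 0.00 (log2). GFPT1, which uses glutamine for hexosamine synthesis, rose from 133.4 ± 7.50 to 202.8 ± 2.43 CPM (edgeR adjusted p = 3.01e-10). GLUL, glutamine synthetase, rose from 193.0 ± 8.40 to 259.4 ± 9.30 CPM (edgeR adjusted p = 3.01e-08). Of the 14 tested arginine, ornithine and polyamine enzymes, 3 were higher and 6 lower (median -0.05). ASS1, which makes argininosuccinate on the way to arginine, rose from 14.7 ± 1.41 to 32.4 ± 1.96 CPM (by 1.14 ± 0.08, log2, SE; edgeR adjusted p = 4.23e-10), and SAT1, a polyamine acetyltransferase, rose by 0.51 (edgeR adjusted p = 8.50e-08). Branched-chain amino acid enzymes had 5 of 16 genes higher and 3 lower (median 0.10), with BCAT1 at 0.16 and DLD at -0.17.

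The mTORC1 sensing list had 5 of 35 tested genes higher and 5 lower, with a median of 0.00. SEH1L, a subunit of the GATOR2 complex, had a log2 fold change of -0.69 and the small GTPase gene RRAGA -0.40 (edgeR adjusted p = 1.24e-06 and 2.46e-05). Mitochondrial amino acid carriers had 2 of 13 genes higher and 5 lower (median -0.12), with SLC25A29 at 0.29 and SLC25A12 at 0.25. Of 9 other tested peptide, lysosomal and vesicular carriers, 3 were higher and 1 lower (median 0.06). SLC15A1, the proton-coupled peptide transporter of the gut, rose from 11.7 ± 0.436 to 18.7 ± 1.19 CPM (edgeR adjusted p = 1.25e-06), and SLC17A5 fell by 0.32 on the log2 scale. Of the 18 chaperones and partners of transporters, 9 were higher and 4 lower (median 0.11), led by the lysosomal MFSD1 at 0.56 and the scaffold NHERF1 at 0.32 (log2 fold change).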

How the data were processed

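Bulk RNA sequencing of 8 libraries was used. The authors deposited 1 table of RSEM estimated counts per gene, not scaled between samples. Per the submitters' processing notes, cutadapt, STAR, RSEM and DESeq2 were used with hg38; versions, annotation release and the use of strand are not given in the sources used here. Estimated counts were rounded to whole numbers. Rows without a gene name numbered 0.

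Genes passing edgeR's filterByExpr (14785 of 58870) were fitted with TMM factors (0.994 to 1.006) and glmQLFit and glmQLFTest (edgeR 4.0.16, R 4.3.3), group as the single term, with Benjamini-Hochberg adjustment over all genes tested and a threshold of 0.05. Standard errors are the absolute log2 fold change divided by the square root of F, and 95% intervals use the fit's degrees of freedom. CPM are TMM-scaled. Positions and exon lengths are from GENCODE 44 (99.4% of genes matched), promoter windows from RefSeq. The test was also run on simulated counts in which few genes were changed. Their means, library sizes and dispersions came from a fit of the real counts.

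Members named with all library values were those called and changed by 0.5 or more (log2), the 8 highest per kilobase, and 9 fixed genes (15 genes in all); in each list the 2 genes with the smallest p were named. Others were named after their values were seen. Members and lists were chosen with earlier results of these data known. SLC66A4 and SAMTOR were not matched. Alternatives were DESeq2 1.42.0, RLE and upper quartile factors, limma voom (limma 3.58.1), 2 other filters, a replicate block and leaving out each library. Libraries of a group differed by more than counting noise (chi-square per degree of freedom of at least 2.12), so none was treated as a repeat deposit of another; this does not show that they came from separate cultures. Counting error limits the precision for rarely counted genes, and the spread between libraries for abundant ones.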

Additional observations from a re-analysis of the deposited data

Results flagged for a closer look

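In 3 of 28 sets of 4 libraries examined for the named members, 1 library stood far from the others. The rule flags about 1 in 20 sets of normally spread values, a rate that does not hold for counts near 0. The SLC7A9 sets, with a single library above 0 in each, are always flagged by it. SLC1A1 in ADRA2A replicate 1 was at 45.3 CPM, and the other ADRA2A libraries were between 42.2 and 42.8 CPM, so the distance was small beside the difference between the groups. SLC7A9 was at 0.351 CPM (6 counts) in EV replicate 1 and at 0.0632 CPM (1 count) in ADRA2A replicate 4, and at 0 in the other libraries of both groups.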

How the results depend on the processing

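The number of members called was 16 and lay between 13 (DESeq2) and 18 (upper quartile factors) under the other settings, and between 12 and 16 over the 8 fits that each left out a library. Lower calls numbered from 9 to 13 and from 8 to 12, and higher calls from 4 to 5 in both. Members past 0.5 on the log2 scale fell from 4 to 2 with a mean of at least 50 counts, a filter that drops SLC38A4 and SLC43A1, and lay between 3 and 5 over the fits without a library. Of the 16 calls 12 were kept in all alternatives that tested the gene. SLC1A4, SLC7A2, SLC7A6 and SLC7A11 were lost under at least 1, and SLC36A4, SLC3A2 and SLC6A6 were gained under at least 1, SLC6A6 without EV replicate 3 (adjusted p = 0.0404) and SLC3A2 with upper quartile factors (0.0457), the replicate block (0.0437) and without ADRA2A replicate 3 (0.0441).

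Direction changed only for 5 uncalled members near 0: SLC38A9 was at -0.0078 with upper quartile factors, SLC38A11 at 0.23 with limma voom and 0.045 with the replicate block. Without a library, SLC36A1 ranged from -0.11 to 0.016, SLC38A7 from -0.061 to 0.025, SLC38A9 from -0.048 to 0.045, SLC38A11 from -0.35 to 0.33 and SLC7A5 from -0.055 to 0.0026 (log2), and the cause was not tested. Same-numbered libraries deviated with correlations between -0.0421 and 0.0701, so no shared deviation by number was seen. This cannot show that same-numbered samples were handled apart. The replicate block gave 6400 calls over all genes against 6314 and 16 members called.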

Other observations

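Among members below the filter on low counts, SLC1A3, a glutamate carrier of glia, had 1, 1, 2 and 3 counts in the EV libraries. It had 0 in all 4 ADRA2A libraries. The bound of 3 counts for a 0 holds for a single library, and not for the 4 together. SLC6A20 summed to 40 counts over the EV libraries and 23 over the ADRA2A libraries, SLC38A5 to 24 and 13, and SLC6A17 to 15 and 5, of which 10 were in EV replicate 1. None of these was tested.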
